A study of Mus musculus with 7 samples.

Results

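Ribosomal protein genes of the cytosolic ribosome were examined in mouse β-cells, as the rows of the count table whose symbol begins with Rpl or Rps and a digit, or is Rpsa, Rplp0, Rplp1 or Rplp2. Symbols with -ps and the Rps6k kinases were left out. Of 24035 genes, 87 matched by name, and 79 of these held at least 70 reads summed over the 7 libraries. The 79 genes comprised 30 of the small subunit, 40 of the large subunit, 3 of the stalk (Rplp0, Rplp1, Rplp2), 5 paralogs (Rpl7l1, Rpl22l1, Rpl36al, Rps4l, Rps27l) and Rps19bp1, which encodes a protein that binds RPS19 and is not itself a ribosomal protein. The 73 genes of the small subunit, large subunit and stalk are called core genes here. Rpl23a, Rps29, Rps27rt, Rpl28 and Rpl36a had 29 to 65 reads in all and were left out, as were Rpl10l, Rpl39l and Rpl3l, which had 0.

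The ribosome has a small subunit, which reads the mRNA, and a large subunit, which joins the amino acids. The stalk proteins on the large subunit recruit the factors that drive elongation. Each subunit needs its proteins in near equal copy number, and in mammals each protein is encoded by mostly 1 active gene, beside many processed pseudogenes that arose by copying its mRNA into the genome. The mRNAs begin with a run of pyrimidines, and their translation is controlled by mTORC1, a kinase complex that senses nutrients. β-cells depend on this machinery for the synthesis of proinsulin.

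The β-cells came from male C57BL/6NCrl mice fed a high fat diet (HFD, 3 mice, replicates 2 to 4) or chow (CD, 4 mice, replicates 1 to 4) for 2 days from 12 weeks of age, and were sorted by FACS. The mice carried no transgene or deletion, and the comparison asks what a short high fat diet does to β-cell transcripts. Libraries of polyA RNA held 10559175 to 14391602 counts on HFD and 11145642 to 22557957 on CD. Insulin mRNA (Ins1 and Ins2) made up 29.9% to 30.9% of the counts on HFD and 27.7% to 29.0% on CD, which fits the β-cell label. HFD replicate 3 stood apart: it had counts for 9627 genes, against 12728 and 13615 in the other HFD libraries and 12484 to 14600 on CD. Levels are given in CPM, the counts of a gene scaled to a common library total, with the totals adjusted by TMM, a method that balances the bulk of genes between libraries. The summed level of 10 acinar enzyme genes was 1.01 CPM in it, against 2619 and 1045 CPM in the other HFD libraries and 76.3 to 3285 CPM on CD. Of 3 nuclear RNAs (Malat1, Neat1, Meg3), the summed level was 3981 to 4319 CPM on HFD and 5387 to 5590 CPM on CD. The part of these differences in the results was not tested.

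The ribosomal protein genes as a whole took a similar small share of the reads on both diets, and the libraries of the diets overlapped. They held 0.568%, 0.549% and 0.579% of all counts in HFD replicates 2, 3 and 4, against 0.534%, 0.564%, 0.589% and 0.542% in CD replicates 1 to 4. The means were 0.565 ± 0.015% on HFD (SD, n = 3) and 0.557 ± 0.0248% on CD (SD, n = 4). With Ins1 and Ins2 taken out of the total, the share was 0.81 ± 0.0153% on HFD and 0.78 ± 0.028% on CD.

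The genes differed far more from each other than between the diets. Per kilobase of transcript, the mean CD level of the 73 core genes ran between 0.571 CPM for Rpl5 and 499 CPM for Rpl41, with a median of 47.0 CPM. Rpl4, a large subunit protein near the exit tunnel, alone took 10.7% of all counts of the 79 genes, and 10 genes took 50.5%. Behind Rpl41, which encodes the smallest protein of the ribosome, the highest CD levels per kilobase were 463 CPM for the stalk gene Rplp1, 379 CPM for Rpl4 and 375 CPM for Rpl8. The lowest, beside Rpl5, were 0.728 CPM for Rps23, 1.16 CPM for Rpl27 and 1.96 CPM for Rpl24. Rpl5 and Rpl11, whose products travel together with the 5S rRNA and can bind MDM2, had 0.571 and 2.07 CPM per kilobase on CD.

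This order of levels ran alongside how much of each coding sequence occurs in no other annotated gene. Every 50-base window of the coding sequence was looked up on both strands in the transcripts of all other GENCODE M21 genes, processed pseudogenes included. The share of windows found nowhere else had a median of 9.74% over the core genes and was 0% for 25 of them. At the upper end, the share was 91.9% for Rps3, 91.3% for Rpl8 and 79.7% for Rpl4. The median CD level was 259 CPM per kilobase in the 11 core genes with a share of at least 50%, 62.7 CPM in the 37 with a share above 0 and below 50%, and 8.46 CPM in the 25 with a share of 0%. Within the group of 11, levels lay between 29.4 CPM per kilobase for Rpl22 and 379 CPM for Rpl4. Across the 73 core genes, Spearman's rho between the share and the CD level per kilobase was 0.79, and with coding length in place of transcript length it was 0.85. These are values across genes of the same libraries, and genes are not independent replicates. Rpl41 ran against the order with the highest level and a share of 0%, and without it rho was 0.84 over 72 genes. Its share rests on 75 coding bases of a transcript of 437 bases, and untranslated bases were not looked up. Rps20, Rps15a and Rpl22 were divided by annotated transcripts of 3706, 5179 and 2051 bases, which lowers their values per kilobase. The 77 genes of the mitochondrial ribosome (Mrpl and Mrps) had a median share of 100%, and the 90th percentile of their CD levels per kilobase was 8.77 times the 10th, against 50.9 times in the core genes. How the authors counted reads that match several places is not given in the sources used here, so the part of such reads in these levels was not tested.

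**Figure D1:**
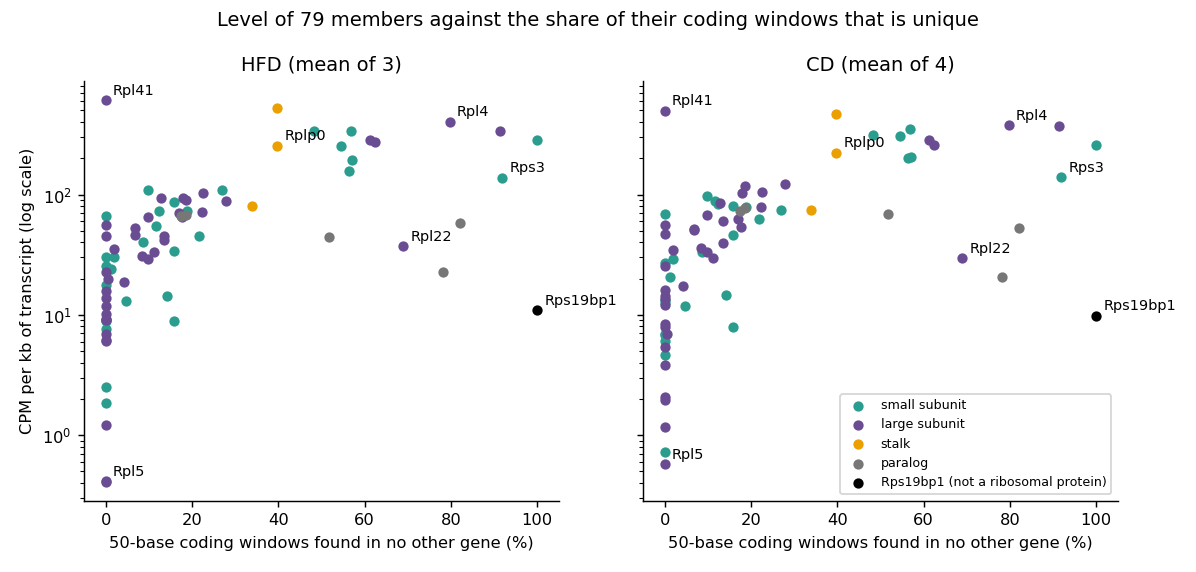
Level of the 79 genes in CPM per kilobase of transcript (log scale) on HFD (left, mean of 3) and CD (right, mean of 4), against the percentage of their 50-base coding windows found in no other annotated gene. Core genes with a share of at least 50% lie between 29.4 and 379 CPM per kilobase on CD, while those at 0% reach down to 0.571, with Rpl41 at 499 as the exception.

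Coding sequences show the contrast between genes at either end. The stretches are 75 bases long, read 5′ to 3′ on the strand of the gene from GENCODE M21 (GRCm38), and bases that differ from the closest annotated copy are in capitals. Bases count from 1 at the start codon. Rpl4 (chromosome 9, 64173375 to 64178666, plus strand), Rps3 (chromosome 7, 99477896 to 99483738, minus strand) and Rplp0 (chromosome 5, 115559467 to 115563727, plus strand) had high counts, and over the aligned bases they differed from Gm5835, Gm8130 and Gm8730 at 34 of 1255, 24 of 570 and 12 of 951 positions. Rpl5 (chromosome 5, 107900502 to 107909005, plus strand), Rps6 (chromosome 4, 86854660 to 86857412, minus strand) and Rpl27 (chromosome 11, 101442298 to 101445529, plus strand) had low counts and were identical to Gm15500, Rps6-ps4 and Rpl27-ps3 over all 891, 747 and 408 coding bases. Rpl41 (chromosome 10, 128548114 to 128549305, minus strand) is shown as the exception, with its 75 coding bases found unchanged in Gm10076. Rps3a1 (chromosome 3, 86137940 to 86142702, minus strand), the gene of lowest p between the diets, differed from Rps3a2 at 4 of 792 bases, none of which lies in the stretch shown. Of 72 core genes with a copy, 19 were identical to it over the aligned bases, and the median identity was 99.6%.
Rpl4, bases 1 to 75: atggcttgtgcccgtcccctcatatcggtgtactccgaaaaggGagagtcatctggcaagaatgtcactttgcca
Rps3, bases 160 to 234: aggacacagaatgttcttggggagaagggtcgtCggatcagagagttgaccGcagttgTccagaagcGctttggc
Rplp0, bases 1 to 75: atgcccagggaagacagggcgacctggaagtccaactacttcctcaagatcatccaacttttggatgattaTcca
Rpl5, bases 1 to 75: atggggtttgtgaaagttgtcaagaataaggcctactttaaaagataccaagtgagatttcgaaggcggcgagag
Rps6, bases 1 to 75: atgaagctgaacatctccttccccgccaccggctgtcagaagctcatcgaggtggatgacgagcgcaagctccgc
Rpl27, bases 1 to 75: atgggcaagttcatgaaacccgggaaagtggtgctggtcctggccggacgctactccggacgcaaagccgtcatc
Rpl41, bases 1 to 75: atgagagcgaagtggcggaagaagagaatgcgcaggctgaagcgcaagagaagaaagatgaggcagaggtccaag
Rps3a1, bases 1 to 75: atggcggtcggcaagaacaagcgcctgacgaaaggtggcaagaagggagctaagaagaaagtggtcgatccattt

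Some large subunit genes shared their counts with a row of a pseudogene on another chromosome. Rpl26 on chromosome 11 and the processed pseudogene Gm15772 on chromosome 5 had the same count in all 7 libraries, with 714, 428 and 791 counts in HFD replicates 2, 3 and 4, against 635, 414, 1103 and 530 in CD replicates 1 to 4. Rpl34 on chromosome 3 and Rpl34-ps1 on chromosome 6 had 5337 and 5311 counts over all libraries and equal counts in 3 of them. Rpl30 on chromosome 15 and Gm12191 on chromosome 11 had 3583 and 3513 counts and equal counts in 2 libraries. Their coding sequences were 99.5%, 99.4% and 99.7% identical to these copies. Whether the paired rows hold the same reads was not tested, and the origin of the reads of Rpl26, Rpl30 and Rpl34 is uncertain. Of the 79 genes, 48 also overlap another annotated gene, mostly a small nucleolar RNA in an intron, and 35 overlap one that has its own row. Some overlap a protein-coding gene with its own row, such as Rpl15 with Nkiras1, Rps14 with Ndst1 and Rps18 with Vps52. The use of strand in the counting is not given in the sources used here.

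Between HFD and CD, no ribosomal protein gene passed an adjusted p of 0.05 in the quasi-likelihood test of edgeR with Benjamini-Hochberg adjustment over 12354 genes (0 of 79; 0% of all genes tested). DESeq2 also called 0 of 79, where it called 0.508% of all genes with an adjusted p, and the likelihood ratio test of edgeR called 0 of 79, where it called 0.186% of all genes. At an unadjusted p under 0.05, 3 genes were higher on HFD and 1 was lower, which is 3.8% and 1.27% of the 79 genes, against 2.86% and 2.91% of all genes tested. Both directions together made 4 genes or 5.06%, against 5.77% of all genes tested. DESeq2 had 5 genes or 6.33% at an unadjusted p under 0.05, against 7.57% of all genes with an adjusted p. The groups did not overlap for 4 genes or 5.06%, against 9.41% of all genes tested. Of these, Rpl41, Rpl22 and Rpl15 were higher on HFD, against 4.03% of all genes tested, and Rps3a1 was lower, against 5.37%. These shares were near or below those of all genes. Without HFD replicate 3, 2 genes were higher and 0 lower at an unadjusted p under 0.05, against 2.99% and 3.82% of all genes in that fit. The 3 higher genes became 0 without CD replicate 1 (1.81% of all genes) and 0 without CD replicate 2 (1.83% of all genes). The 1 lower gene became 0 without CD replicate 3 (2.3% of all genes) and 3 without HFD replicate 4 (5.7% of all genes).

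The log2 fold changes, HFD over CD, were centred close to 0. Their median was 0.043 over the 79 genes, with 41 above and 38 below 0, against -0.078 over all genes tested, of which 42.1% were above 0, and without HFD replicate 3 it was 0.022. In the small subunit the median was 0.08, with 16 of 30 above 0. In the large subunit it was -0.01, with 19 of 40 above 0. All 3 stalk genes were above 0, with a median of 0.17, and 2 of the 5 paralogs were, with a median of -0.14. For the 16 genes with at least 100 CPM on CD, the values lay between -0.47 and 0.29, with a median SE of 0.12. For the 49 genes under 50 CPM they lay between -2.19 and 2.54.

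**Figure D2:**
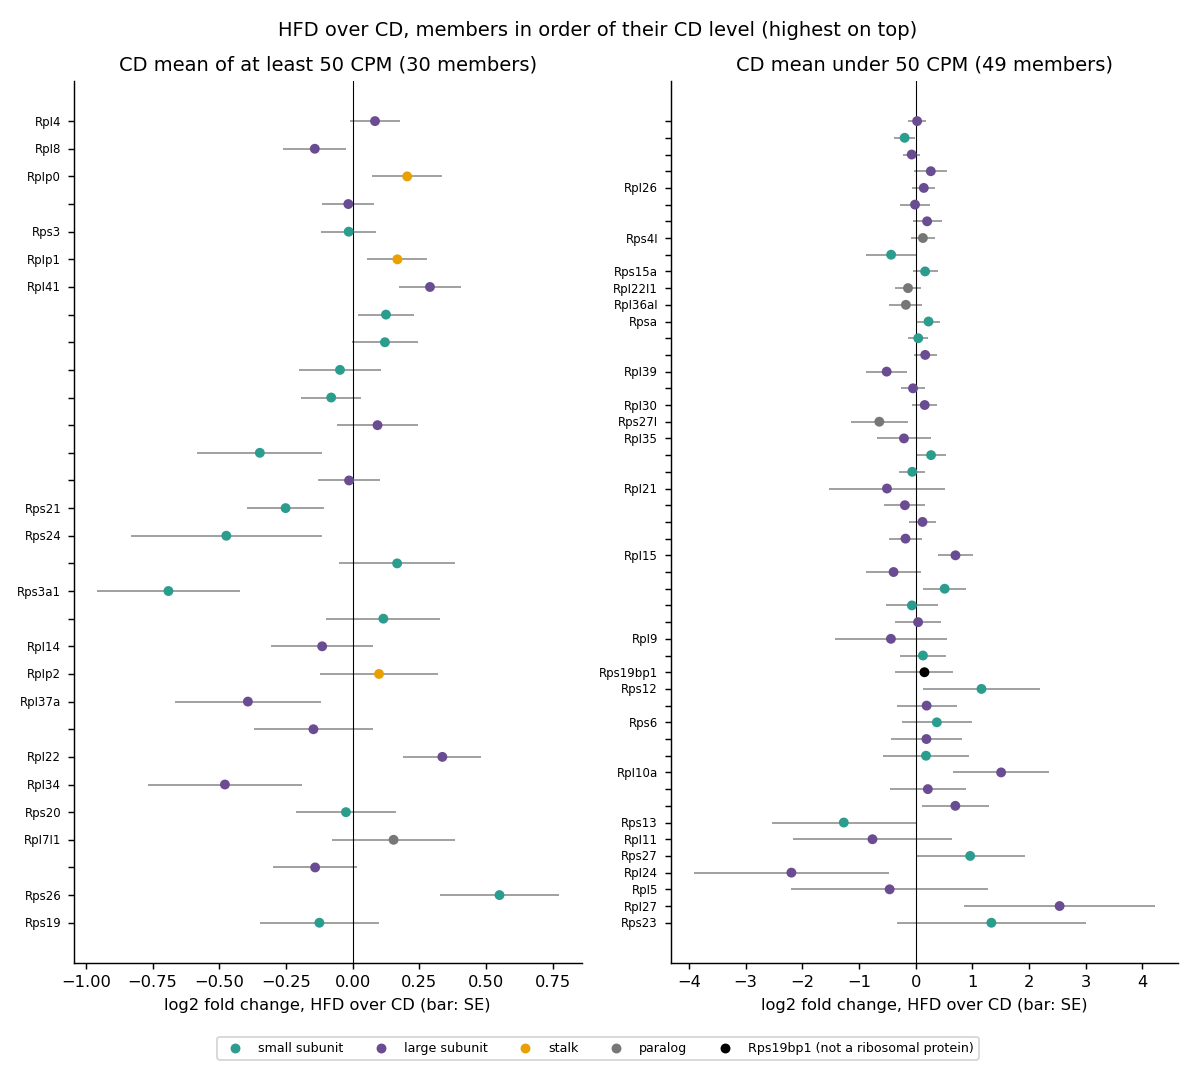
Log2 fold change, HFD over CD, of the 79 genes with its SE (edgeR, 3 HFD and 4 CD libraries), in order of their mean CD level with the highest on top, for 30 genes with at least 50 CPM on CD (left) and 49 genes below that (right, wider axis), with names beside the genes described in the text. Values lie on both sides of 0 and none passed an adjusted p of 0.05.

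Rps3a1, a small subunit protein near the mRNA exit, was the gene of lowest p. It had 58.3, 38.1 and 64.4 CPM in HFD replicates 2, 3 and 4, against 71.5, 71.3, 129.5 and 73.7 CPM in CD replicates 1 to 4. All 3 HFD libraries were below all 4 CD libraries, and CD replicate 3 was far above the other CD libraries. The log2 fold change was -0.69 ± 0.27 (SE; edgeR unadjusted p = 0.0287, adjusted p = 0.833). Without CD replicate 3 it was -0.43 (unadjusted p = 0.0729), without HFD replicate 3 it was -0.52 (unadjusted p = 0.0659), and without HFD replicate 2 it was -0.77 (unadjusted p = 0.0502). Across the 18 alternatives the adjusted p lay between 0.462 and 0.994.

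Rpl41 was higher on HFD at an unadjusted p. It had 278, 252 and 269 CPM in HFD replicates 2, 3 and 4, against 211, 189, 244 and 227 CPM in CD replicates 1 to 4. The groups did not overlap, with CD replicate 3 closest to the HFD libraries. The log2 fold change was 0.29 ± 0.12 (SE; edgeR unadjusted p = 0.032, adjusted p = 0.854), and it stayed between 0.21 and 0.34 with a library left out. The unadjusted p was 0.112 without HFD replicate 2, 0.101 without HFD replicate 4, 0.0713 without CD replicate 1 and 0.0966 without CD replicate 2.

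Rps26, a small subunit protein that contacts mRNA upstream of the start codon, had 65.3, 98.9 and 58.8 CPM in HFD replicates 2, 3 and 4, against 40.9, 52.0, 47.0 and 63.2 CPM in CD replicates 1 to 4. HFD replicate 3 was the highest, and CD replicate 4 lay above HFD replicate 4. The log2 fold change was 0.55 ± 0.22 (SE; edgeR unadjusted p = 0.0335, adjusted p = 0.854), and without HFD replicate 3 it was 0.28 (unadjusted p = 0.172). The unadjusted p was also above 0.05 without CD replicate 1 (0.087), CD replicate 2 (0.064) and CD replicate 3 (0.0751).

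Rpl22, a large subunit protein that mice can live without, had 73.4, 85.4 and 69.7 CPM in HFD replicates 2, 3 and 4, against 65.2, 61.2, 51.9 and 63.1 CPM in CD replicates 1 to 4. Every HFD library was above every CD library. The log2 fold change was 0.34 ± 0.15 (SE; edgeR unadjusted p = 0.0464, adjusted p = 0.854), and without HFD replicate 3 it was 0.23 (unadjusted p = 0.161). With any other library left out, the unadjusted p was between 0.0506 and 0.0979. With 69.0% of its coding windows found in no other gene, Rpl22 was the one of these 4 with a share over 50%, while Rps26 had 27.03% and Rps3a1 11.7%.

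Rpl15, also of the large subunit, had 20.7, 38.8 and 19.9 CPM in HFD replicates 2, 3 and 4, against 17.8, 15.4, 16.8 and 15.1 CPM in CD replicates 1 to 4. The groups did not overlap, and HFD replicate 3 lay far above the other HFD libraries. The log2 fold change was 0.70 ± 0.32 (SE; edgeR unadjusted p = 0.0519, adjusted p = 0.854), and without HFD replicate 3 it was 0.31 (unadjusted p = 0.221).

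**Figure D3:**
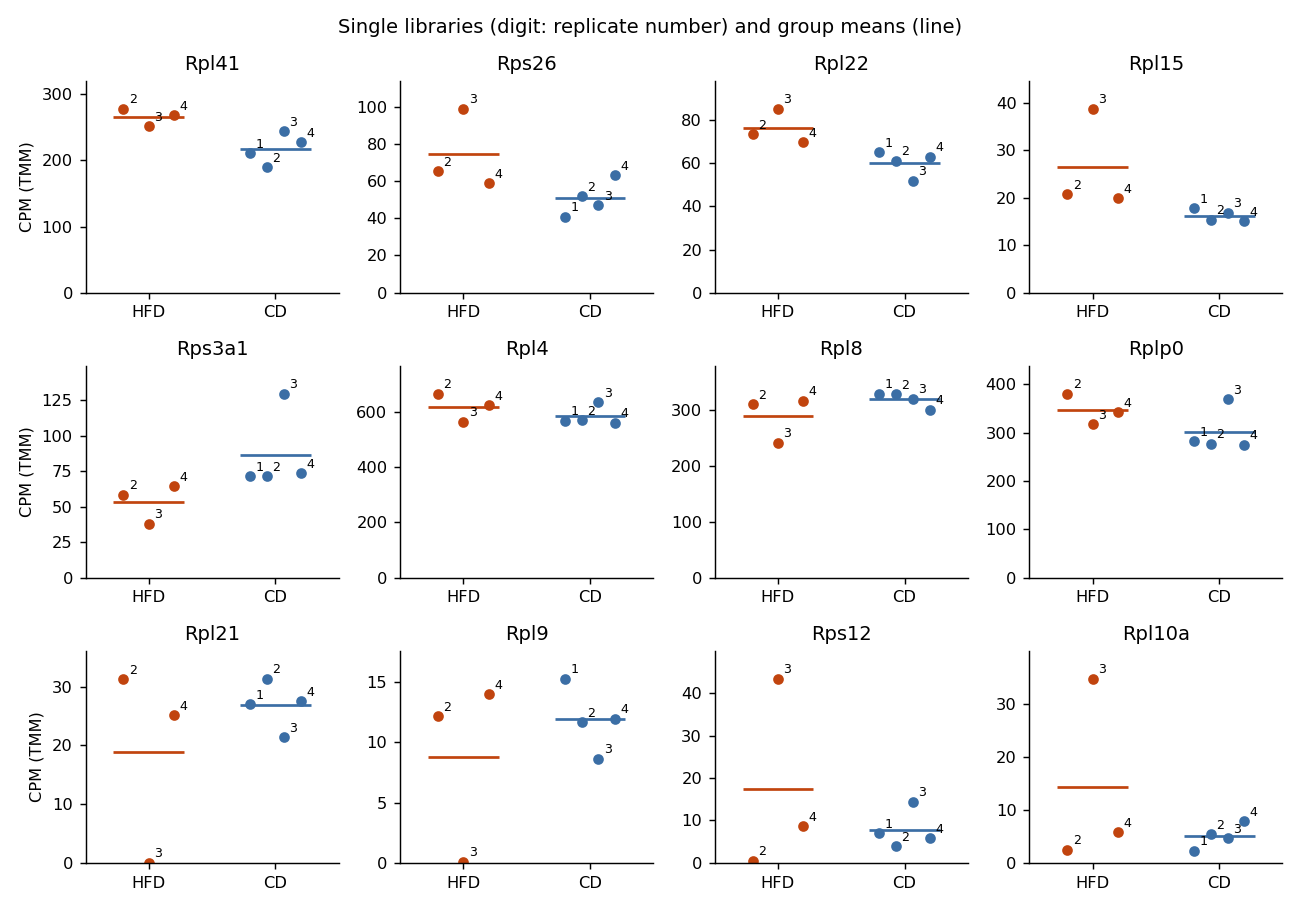
CPM of 12 genes in single libraries, HFD left and CD right, with the replicate number beside each point and the group mean as a line (every axis starts at 0). The HFD libraries lie above all CD libraries for Rpl41, Rpl22 and Rpl15 and below them for Rps3a1, while in the bottom row HFD replicate 3 lies apart from the other 6 libraries.

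Rpl4 and Rpl8 were the most abundant genes on CD in CPM, and the libraries of the diets overlapped for both. Rpl4 had 665, 564 and 624 CPM in HFD replicates 2, 3 and 4, against 567, 568, 635 and 561 CPM in CD replicates 1 to 4, a log2 fold change of 0.08 ± 0.09 (SE). Rpl8, a large subunit protein of the core of the peptidyl transferase centre, had 309.9, 241 and 316 CPM in HFD replicates 2, 3 and 4, against 329, 327, 319.6 and 300.3 CPM in CD replicates 1 to 4, and its log2 fold change was -0.14 ± 0.12 (SE). Rps3, a small subunit protein at the mRNA entry, averaged 264 ± 17.7 CPM on HFD (SD, n = 3) and 267 ± 17.9 CPM on CD (SD, n = 4). Summed over the 11 core genes with a share of at least 50%, the level was 2421 ± 185 CPM on HFD and 2441 ± 97.9 CPM on CD.

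Of the stalk genes, Rplp0, the base of the stalk, had 381, 318 and 342 CPM in HFD replicates 2, 3 and 4, against 282, 277, 369.9 and 276 CPM in CD replicates 1 to 4. The libraries overlapped because of CD replicate 3, and the log2 fold change was 0.20 ± 0.13 (SE; edgeR unadjusted p = 0.156, adjusted p = 0.889). Its partner Rplp1 averaged 260 ± 27.8 CPM on HFD and 231 ± 14.3 CPM on CD, and the other partner Rplp2 averaged 77.2 ± 20.8 and 72.1 ± 15.3 CPM. The log2 fold changes of Rplp1 and Rplp2 were 0.17 ± 0.11 and 0.10 ± 0.22 (SE), and that of Rplp2 was -0.16 without HFD replicate 3.

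Below 0, the genes of low p after Rps3a1 included Rps21, Rpl34, Rpl37a, Rpl39, Rps24 and the paralog Rps27l, with log2 fold changes between -0.64 and -0.25 and unadjusted p between 0.116 and 0.232. Rps24, a small subunit gene, had 97.2, 28.01 and 93.1 CPM in HFD replicates 2, 3 and 4, against 94.3, 109, 116 and 85.6 CPM in CD replicates 1 to 4, and HFD replicate 3 lay below all others. Without that library the log2 fold change of Rps24 was -0.10, against -0.47 with it. The other 5 also came closer to 0 without it, at -0.12 for Rps21, -0.20 for Rpl34, -0.13 for Rpl37a, -0.21 for Rpl39 and -0.22 for Rps27l.

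Genes chosen for their known roles did not pass the test either. Rpsa, also known as the laminin receptor, averaged 46.5 ± 10.8 CPM on HFD and 39.7 ± 2.89 CPM on CD. Rps6, the substrate of the S6 kinases downstream of mTORC1, had 4.73, 13.8 and 5.07 CPM in HFD replicates 2, 3 and 4, against 6.04, 8.57, 3.95 and 5.74 CPM in CD replicates 1 to 4, and its log2 fold change was 0.37 ± 0.62 (SE). Without HFD replicate 3, that of Rps6 was -0.32. Rps19, the gene most often mutated in Diamond-Blackfan anaemia in humans, averaged 46.0 ± 5.69 CPM on HFD and 50.2 ± 13.0 CPM on CD. Rpl5 and Rpl11 had 111 and 145 counts over all 7 libraries, and their log2 fold changes were -0.46 ± 1.74 and -0.76 ± 1.41 (SE). Without HFD replicate 3 those of Rpl5 and Rpl11 were 0.086 and -0.20.

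Of the paralogs, Rps27l and Rpl22l1 were compared with the genes they resemble. Rps27l, a p53 target, averaged 22.2 ± 13.8 CPM on HFD and 34.7 ± 12.4 CPM on CD, and its partner Rps27 averaged 3.1 ± 2.41 and 1.58 ± 0.521 CPM. The ratio of Rps27l to Rps27 was 13.6, 1.09 and 23.15 in HFD replicates 2, 3 and 4. On CD the ratio was 23.7, 31.6, 26.8 and 11.2 in replicates 1 to 4, so HFD replicate 3 lay apart. Rps27l had 51.7% of its coding windows to itself and Rps27 had 0%. Rpl22l1, whose level is held down by RPL22 in mice, averaged 36.8 ± 10.9 CPM on HFD and 40.5 ± 4.18 CPM on CD. The ratio of Rpl22l1 to Rpl22 was 0.671, 0.339 and 0.463 in HFD replicates 2, 3 and 4, against 0.598, 0.762, 0.724 and 0.612 in CD replicates 1 to 4, so the groups overlapped. Rps4l, annotated as a transcribed processed pseudogene, averaged 45.5 ± 3.26 CPM on HFD and 41.7 ± 9.42 CPM on CD, and lies in the locus of Tmtc1. Rpl7l1 averaged 59.6 ± 13.7 CPM on HFD and 53.6 ± 13.4 CPM on CD, and Rpl36al averaged 35.7 ± 14.5 and 40.3 ± 5.08 CPM. None of the 5 paralogs had an unadjusted p under 0.05.

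HFD replicate 3 decided the values of many low genes. In it, 24 of the 79 genes (30.4%) lay more than 2-fold from the median of the other 6 libraries on the log2(CPM + 0.5) scale, 16 below and 8 above. In the other HFD libraries 8 and 0 genes did, and on CD 1 to 3. The same held over all genes tested, of which 40.7% lay more than 2-fold away in HFD replicate 3, against 9.53% and 5.06% in the other HFD libraries and 2.53% to 12.1% on CD. Of the 25 core genes with no unique window 14 lay that far away in HFD replicate 3, and of the 11 with a share of at least 50% none did. These classes also differ in level, and over all genes tested the percentage was 53.5% under 50 CPM on CD and 8.18% at 50 CPM or more. Of the 25 genes 24 had under 50 CPM, and 14 of these (58.3%) lay that far away, while all 11 of the other class had at least 50 CPM.

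Rpl21 had 31.3, 0 and 25.2 CPM in HFD replicates 2, 3 and 4, against 27.01, 31.3, 21.4 and 27.6 CPM in CD replicates 1 to 4. A count of 0 allows a level of up to 0.274 CPM in HFD replicate 3, for counting error only, so Rpl21 was low in that library by more than counting error. Rpl9 had 12.2, 0.0915 and 14.0 CPM in HFD replicates 2, 3 and 4, against 15.3, 11.7, 8.65 and 11.98 CPM in CD replicates 1 to 4. In the opposite direction, Rps12 had 0.517, 43.4 and 8.61 CPM in HFD replicates 2, 3 and 4, against 6.96, 3.93, 14.4 and 5.81 CPM in CD replicates 1 to 4. Rpl10a had 2.51, 34.7 and 5.83 CPM in HFD replicates 2, 3 and 4, against 2.27, 5.36, 4.62 and 7.87 CPM in CD replicates 1 to 4. Rpl27 had 0, 10.4 and 2.22 CPM in HFD replicates 2, 3 and 4, against 0, 0.893, 0.897 and 1.06 CPM in CD replicates 1 to 4. Within 1 library some genes were thus near 0 while others were several times higher than in the rest. Without HFD replicate 3 the log2 fold change of Rpl10a was -0.28, against 1.51 with it, and that of Rps12 was -0.79, against 1.16. For Rpl21 it was 0.063, against -0.51, and for Rpl9 it was 0.13, against -0.44. In all, 7 genes had a count of 0 in at least 1 library (Rpl5, Rpl11, Rpl21, Rpl24, Rpl27, Rps13, Rps23), 6 of them in HFD replicate 3. Rpl9 and Rps12 were named after their values were seen.

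**Figure D4:**
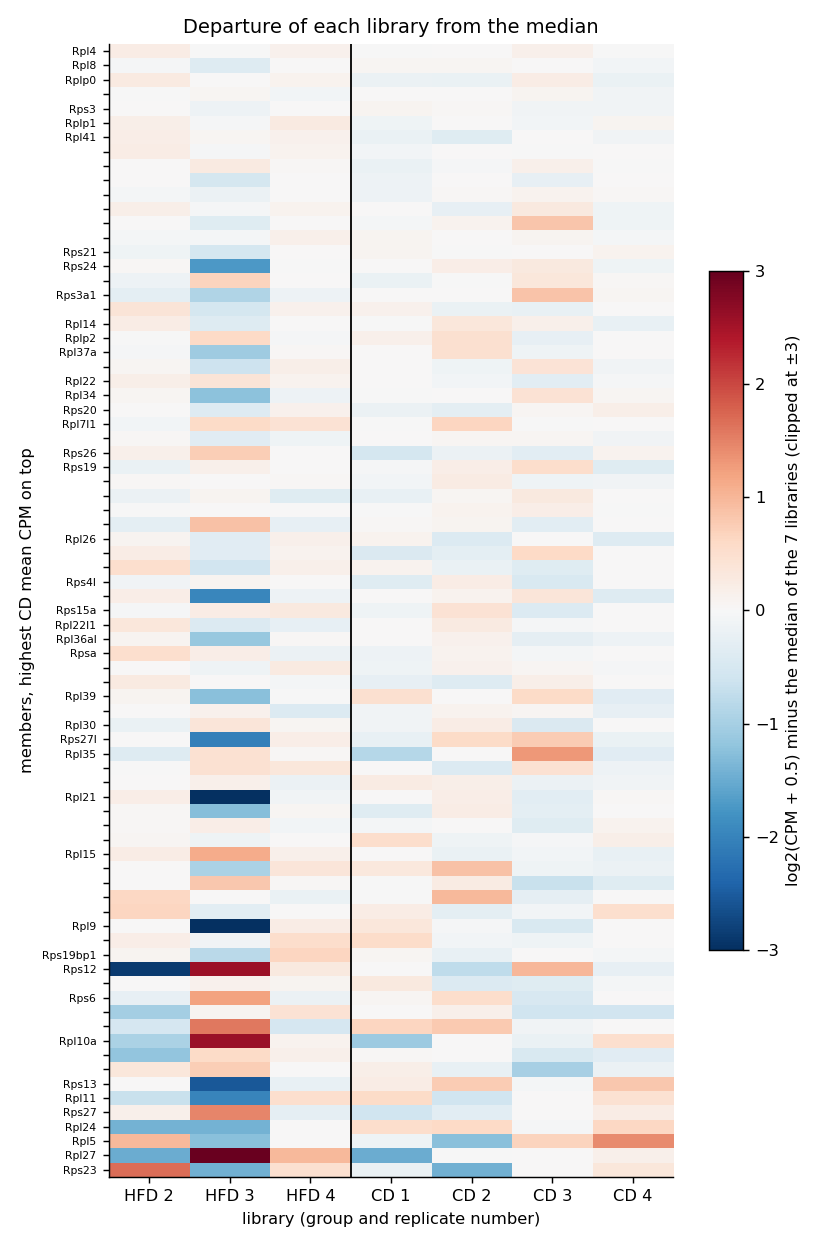
Log2(CPM + 0.5) of each gene in each library minus the median of the 7 libraries, HFD left of the line and CD right of it, with the highest CD mean CPM on top (colour clipped at 3 in both directions) and names beside the genes described in the text. HFD replicate 3 holds most of the strongest colours in both directions, mostly among the lower genes.

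Genes that act with the ribosome also stayed near 0. Of 16 translation factors and other genes whose mRNAs begin with a pyrimidine run, 8 lay on each side of 0, the median was -0.0029 and none was at an unadjusted p under 0.05. Eef1a1, an elongation factor, averaged 1143 ± 99.2 CPM on HFD and 1181 ± 37.7 CPM on CD. Of 27 genes of the mTORC1 pathway 12 were above 0, with a median of -0.08, and of 27 genes for the assembly of the subunits 11 were, with a median of -0.11. The 76 mitochondrial ribosomal protein genes tested had a median of 0.01, with 39 above 0. No gene of these lists passed an adjusted p of 0.05. Fau, which encodes a ribosomal protein fused to a relative of ubiquitin, averaged 7.36 ± 2.25 CPM on HFD and 9.45 ± 2.96 CPM on CD.

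Some sequence features that the choice by name did not use were more frequent at the start sites of the genes than at all promoters. Most of the genes lacked each of them. RefSeq promoters (GRCm38.p6, 250 bases before to 50 after the start) were found for 55 of the 73 core genes. Their starts lay up to 575 bases (Rps25) from the start in GENCODE. A run of at least 8 pyrimidines within 15 bases of the start was present in 23 of them (41.8%), against 12.3% of all 32851 promoters. CCGGAAG, a motif of ETS factors, was present on either strand in 22 (40%), against 8.86% of all promoters. The pyrimidine motifs CTTTTC and CTTTCC were found in 4 (7.27%) and 7 (12.7%), against 1.09% and 1.46% of all promoters. CACGTG, an E-box, was in 5 (9.09%), close to the 7.15% of all promoters. A match is a description and not a bound site.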

How the data were processed

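RNA was sequenced from FACS-sorted β-cells of 3 HFD and 4 CD mice, 1 library each. The authors deposited raw read counts per gene symbol in 1 table, with no normalization. According to the submitters' processing notes, mm10 and edgeR were used. No source used here gives the aligner, the read counter or its strand setting. Of the annotation, only the label igenomes known GENES on the deposited counts is given. Of the 72 closest copies in GENCODE M21, 6 have a row of counts. Of 24062 rows, 27 hold a date in place of a symbol and were left out (at most 0.155% of a library's counts). The other symbols were matched to GENCODE M21 (GRCm38, the assembly of mm10), with 98.5% matched and all 79 members among them.

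The table was fitted whole in edgeR 4.0.16 (R 4.3.3): filterByExpr (12354 genes), TMM, glmQLFit and glmQLFTest, two-sided, with Benjamini-Hochberg adjustment over all genes tested. The SE of a log2 fold change was derived from this test, as its absolute value over the square root of the F statistic. On simulated data the fit was checked. Alternatives were DESeq2 1.42.0, limma 3.58.1 (voom), the likelihood ratio test, other scalings and filters, a replicate block, each library left out, and loess trends (span 0.5) on length or GC content removed. Windows of 50 bases were compared in Python 3.11.15, and closest copies were aligned with Biopython 1.88. Intervals from counts of 0 use 3 counts.

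Members and gene lists were chosen with earlier results of these data known. Genes named are the 8 of lowest p in each direction, the 4 highest and 4 lowest core genes per kilobase on CD, all paralogs, 8 genes with known roles, and every member at 0 in a library. Rps3, Rpl9, Rpl35, Rps12, Rps20 and Rps15a, and genes named for a shared row, were named after their values were seen. Results of some genes that these choices name are not reported here.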

Additional observations from a re-analysis of the deposited data

Results flagged for a closer look

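Among the 4 CD libraries, 1 library stood far from the others for 6 of 36 values examined (Dixon's test at the 95% level, which flags about 1 in 20 groups by chance). CD replicate 3 was the highest for Rplp0 (369.9 CPM, the others 276 to 282), for Rps3a1 (129.5 CPM, the others 71.3 to 73.7) and for Rpl4 (635 CPM, the others 561 to 568). It is also the deepest library. CD replicate 2 was the highest for the paralogs Rpl7l1 (73.7 CPM, the others 46.6 to 47.1) and Rpl22l1 (46.7 CPM, the others 37.6 to 39.0). It also had the highest sum of acinar genes, and the part of that in these values was not tested. For Rpl27, CD replicate 1 was lowest with 0 CPM (the others 0.893 to 1.06), where the level of 3 counts in that library is 0.251 CPM.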

How the results depend on the processing

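No member passed an adjusted p of 0.05 under any of the 18 alternatives, and the lowest adjusted p among members lay between 0.411 (DESeq2) and 0.994 (without CD replicate 1). Members higher on HFD at an unadjusted p under 0.05 were 3 in the fit reported, 1 by the likelihood ratio test, 1 with the length trend removed, 0 with the replicate block, and 0 to 4 with a library left out. Members lower on HFD were 1 in the fit reported, 2 with the length trend removed, 0 with the replicate block, and 0 to 3 with a library left out. The median log2 fold change was 0.043, and with a library left out it lay between -0.019 and 0.055. The share of counts was 0.0082 percentage points higher on HFD, and between 0.00042 and 0.0188 with a library left out. With Ins1 and Ins2 out of the total it was 0.0302 points higher.

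Of 35 named members, 615 of 628 log2 fold changes under an alternative kept their direction, and 13 had the opposite sign. The unadjusted p changed side of the threshold in some alternatives. Of 18 alternatives, it stayed under the threshold in 12 for Rpl41, 12 for Rps26, 5 for Rpl22 and 14 for Rps3a1. For Rpl15, above the threshold in the fit reported, it was under in 5. The log2 fold change of Rps12 was -0.044 with the replicate block and -0.84 by limma-voom, against 1.16. With a library left out, values ran between -0.28 and 2.00 for Rpl10a, -1.71 and 0.086 for Rpl5, -0.37 and 0.12 for Rpl36al, -0.16 and 0.23 for Rplp2, -0.32 and 0.63 for Rps6, -0.26 and 0.037 for Rps19, -1.09 and 0.063 for Rpl21, -0.97 and 0.13 for Rpl9, -0.79 and 1.72 for Rps12, and -0.47 and 0.43 for Rpl35. The library was HFD replicate 3 in each case but Rps19 and Rpl35, where it was CD replicate 3, and Rplp2, which turned without either. The cause was not tested.

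Mice with the same replicate number deviated together little, if at all (correlations 0.0253, 0.00424 and 0.0816 over genes). For mice with different numbers the correlations lay between -0.0567 and 0.0215. The numbers were not used as pairs in the fit reported. Counts were 86 to 265 over all libraries for the 7 members of the lowest level, with SEs of 0.96 to 1.74. Members with more counts that HFD replicate 3 set apart had SEs in that range too (1.03 for Rpl21 with 2327 counts). The part of depth in these SEs was not tested.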

Other observations

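Rows with -ps in the symbol, which the choice by name left out, held few counts beside Rpl34-ps1. Rpl14-ps1 had 193 and Rplp2-ps1 had 192 counts over the 7 libraries, against 7548 for Rpl14 and 7020 for Rplp2. Rpl31-ps12 had 15 counts, all of them in HFD replicate 2. Rps29, a small subunit gene below the limit of 70 counts, had 1, 0 and 0 counts in HFD replicates 2, 3 and 4, against 15, 0, 13 and 0 in CD replicates 1 to 4. Rpl35 had 21.2, 38.3 and 28.7 CPM in HFD replicates 2, 3 and 4, against 15.3, 27.9, 70.05 and 22.05 CPM in CD replicates 1 to 4, and its spread on CD was the widest of the members above 10 CPM.

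Among the mitochondrial ribosomal protein genes, Mrpl16 had 15.4, 17.5 and 16.9 CPM in HFD replicates 2, 3 and 4, against 10.2, 10.7, 8.61 and 9.996 CPM in CD replicates 1 to 4. The groups did not overlap and lay close together within each diet, but the log2 fold change of 0.75 ± 0.35 (SE) had an unadjusted p of 0.0582 and an adjusted p of 0.857 by edgeR.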
